A study of Mus musculus with 4 samples.

Results

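Hematopoietic cells read their environment through cytokine receptors, and the loci of 9 such receptor genes were examined for binding of the transcription factor RUNX1 and for peaks of the repressive histone mark H3K27me3. The genes were *Kit*, *Flt3* and *Csf1r*, which encode receptor tyrosine kinases for stem cell factor, FLT3 ligand and macrophage colony-stimulating factor (CSF), *Csf3r*, *Il3ra* and *Epor*, which encode the receptors of granulocyte CSF, interleukin-3 (the alpha chain) and erythropoietin, *Csf2ra*, the alpha chain of the granulocyte-macrophage CSF receptor, and *Csf2rb* and *Csf2rb2*, its signaling beta chain and the closely related mouse chain that serves interleukin-3. A locus was the gene body in mm10 with 50 kb to each side, and every peak summit inside it was taken. Summits of the RUNX1 peak lists were extended by 200 bp and merged into sites, of which 39 of 24972 lay in the 9 loci. The nearest annotated transcription start belonged to one of the 9 genes at 13 of the 39 sites.

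The material was mouse embryonic stem cells (ESCs) with a Tet-on dominant-negative FOS peptide (dnFOS), which keeps JUN-related proteins off DNA once Doxycycline (DOX) is added. All 4 libraries came from these dnFOS cells at 2 days of differentiation to floating hematopoietic progenitors (HP cells). They are ESC-derived cells of one engineered line, and no expression values were at hand with which to check markers of the cell type. For RUNX1 there was 1 library labelled as treated with DOX (+DOX, 21831 peaks on the assembled chromosomes) and 1 labelled as untreated (-DOX, 18389 peaks). The run name written inside each RUNX1 list gives the opposite treatment, so each direction below follows the labels and turns around if the run names are right. The 2 libraries labelled H3K27me3 (6356 peaks in the one titled untreated and 7233 in the one titled DOX) carry a title and a treatment that contradict each other, and their protocol text speaks of an anti-RUNX1 antibody. They were put in no condition and are told apart by their titles alone. With 1 library per condition there was no replicate and no test, the read depth is unknown, and a site found in 1 list is not a measured change in binding.

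RUNX1 binds the core sequence TGTGGTT and works in blood development together with ETS factors such as PU.1, with C/EBP factors, with GATA factors and with AP-1, the target of dnFOS. Receptors of the cytokine family signal through Janus kinases to STAT proteins, and receptor tyrosine kinases signal mainly through RAS and MAP kinases, the pathway that ends at AP-1. *Csf1r* is known for an enhancer in its second intron, the fms-intronic regulatory element, to which RUNX1, PU.1 and C/EBP bind in macrophages and their precursors. H3K27me3 is deposited by Polycomb complexes at silent developmental genes.

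The reference sequences of 7 sites, and of 1 inverted copy, are given first because the values below refer to them. They were read from the RefSeq copy of the mm10 assembly on the plus strand, as the 200 bp centred on the summit unless stated, with motif matches in capitals on whichever strand they lie. The first is the site of *Csf3r*, inside the gene, with a match to PU.1 (GAGGAAGT) and one to the GATA factors' word (AGATAA).

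Csf3r intron, chr4:126028122-126028321: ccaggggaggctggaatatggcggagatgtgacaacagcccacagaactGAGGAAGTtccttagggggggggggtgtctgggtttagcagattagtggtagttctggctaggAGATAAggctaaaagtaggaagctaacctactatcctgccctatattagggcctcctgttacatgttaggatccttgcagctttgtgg

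The site at the start of *Csf2rb* is shown for the 80 bp of the first intron that lie outside untranslated sequence. The capitals mark, in order, a STAT match (TTCNNNGAA), a C/EBP match (TTGCNNAA) and a PU.1 match on the minus strand.

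Csf2rb first intron, chr15:78325910-78325989: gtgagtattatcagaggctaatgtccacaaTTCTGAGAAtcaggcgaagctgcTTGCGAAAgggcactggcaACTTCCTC

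The next is the site between *Csf2rb2* and *Csf2rb*, with a C/EBP match in capitals. It is followed by its inverted copy nearer to *Csf2rb*, written as the reverse complement so that both read alike. In the copy the capitals mark the 4 of 192 letters that differ from the first.

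Csf2rb2 upstream, chr15:78312606-78312805: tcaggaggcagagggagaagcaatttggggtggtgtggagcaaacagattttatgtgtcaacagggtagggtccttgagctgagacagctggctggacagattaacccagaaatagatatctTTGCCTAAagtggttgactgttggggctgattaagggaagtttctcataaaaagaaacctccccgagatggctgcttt
Csf2rb upstream copy, chr15:78318803-78318994: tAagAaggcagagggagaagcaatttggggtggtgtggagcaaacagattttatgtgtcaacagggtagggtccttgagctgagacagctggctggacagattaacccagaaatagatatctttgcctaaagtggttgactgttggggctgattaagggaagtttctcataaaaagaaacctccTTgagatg

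The last 4 are the site before the start of *Il3ra* with an ETS match, the site before the start of *Epor* with a GATA match at its summit, and 2 sites beyond the 3′ end of *Csf2ra*. Of those 2, the first was in the +DOX list alone (2 GATA matches and the shorter RUNX match TGTGGT), and the second was near the top of all 4 lists and had no match.

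Il3ra upstream, chr14:14345547-14345746: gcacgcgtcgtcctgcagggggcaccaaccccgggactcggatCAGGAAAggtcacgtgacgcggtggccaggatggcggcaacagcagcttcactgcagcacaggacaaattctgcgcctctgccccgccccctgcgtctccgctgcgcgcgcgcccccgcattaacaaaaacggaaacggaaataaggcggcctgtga
Epor upstream, chr9:21963527-21963726: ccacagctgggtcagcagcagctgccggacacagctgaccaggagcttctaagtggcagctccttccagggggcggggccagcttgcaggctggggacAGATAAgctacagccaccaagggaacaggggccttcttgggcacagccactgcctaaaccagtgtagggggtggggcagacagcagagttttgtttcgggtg
Csf2ra 3′ side, chr19:61207646-61207845: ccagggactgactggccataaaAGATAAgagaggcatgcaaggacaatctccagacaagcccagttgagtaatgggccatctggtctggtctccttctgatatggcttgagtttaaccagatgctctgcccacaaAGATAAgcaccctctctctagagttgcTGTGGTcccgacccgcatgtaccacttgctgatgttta
Csf2ra far 3′ side, chr19:61199661-61199860: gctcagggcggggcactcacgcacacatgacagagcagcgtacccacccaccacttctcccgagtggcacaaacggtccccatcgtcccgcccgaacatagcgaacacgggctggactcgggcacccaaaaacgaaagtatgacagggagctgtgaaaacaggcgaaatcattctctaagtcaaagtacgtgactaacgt

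RUNX1 sites were found at 8 of the 9 receptor loci and were missing at *Kit*. Of all 21938 protein-coding genes, 78.0% had at least 1 site in the gene or within 50 kb, so a site in the locus is common. The number per locus ran from 0 at *Kit* to 9 at *Epor* with a median of 5, where the median of all protein-coding genes was 3 and the quartiles were 1 and 5. *Csf2rb* and *Csf2rb2* are neighbours and share 5 of their sites. The genes with a site for which their own start was the nearest were 7 of 9, against 51.8% of protein-coding genes, and the exceptions were *Kit* and *Csf1r*. A RUNX1 site lay within 1500 bp of a start of *Csf2ra*, *Csf2rb*, *Csf3r*, *Il3ra*, *Flt3* and *Epor*, 6 of the 9, where 10970 of the 21938 protein-coding genes have one. At *Csf3r*, *Csf2rb* and *Flt3* that site was only in the +DOX list and weak (-log10 q, explained below, of 3.45, 4.08 and 5.69). The *Csf3r* site is near an internal annotated start and lies 3672 bp from the start of the gene.

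**Figure D1:**
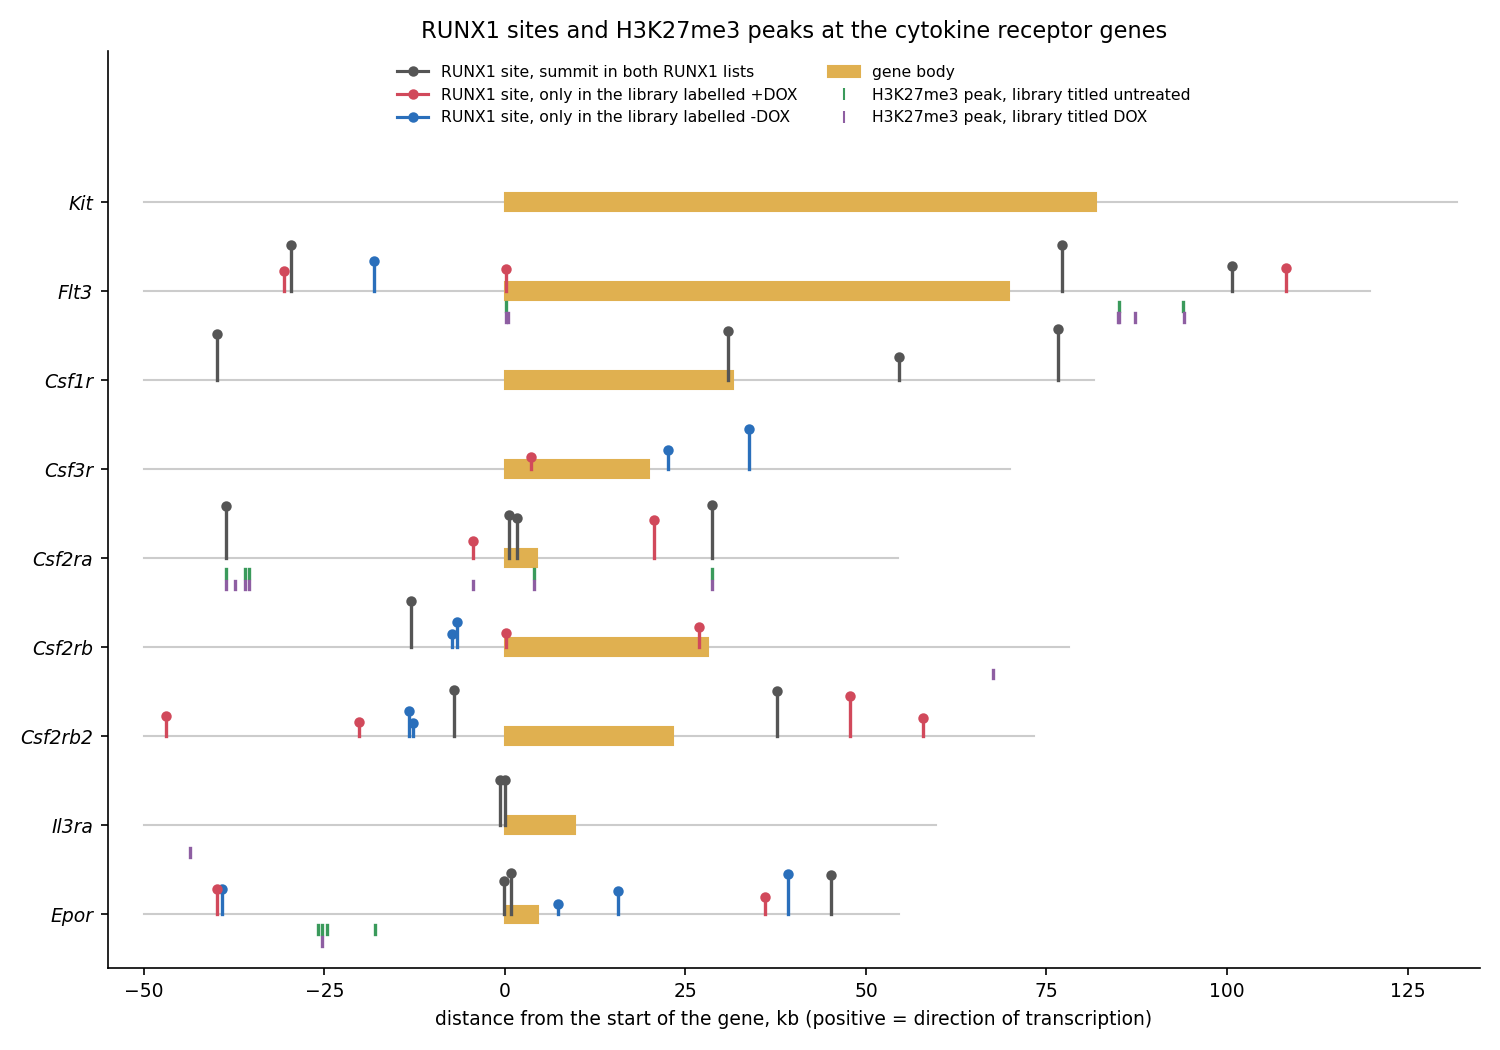
The 9 loci are drawn to scale by distance in kb from the start of each gene in the direction of transcription, with the gene body as a bar, RUNX1 sites as stems above the line (height is the higher percentile of the site's peaks within their lists, colour the lists that hold a summit) and H3K27me3 summits as ticks below. The *Kit* line is empty, *Csf1r* has 4 sites in both lists and none at its start, and *Il3ra* has 2 sites in both lists at its start.

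A summit in both RUNX1 lists was found at 18 of the 39 sites (46.2%, where all sites had 56.8%), while 12 were only in the +DOX list (30.8%, against 28.4%) and 9 only in the -DOX list (23.1%, against 14.8%). With the 2 libraries exchanged, 9 were only in +DOX and 12 only in -DOX. Among the 13 sites whose nearest start is that of a receptor gene, 7 were in both lists, 4 only in +DOX and 2 only in -DOX. Inside the gene bodies there were 9 sites, 5 in both lists (55.6%), 4 only in +DOX (44.4%) and none only in -DOX. Among sites in all protein-coding genes the shares were 60.01% in both lists, 26.07% only in +DOX and 13.9% only in -DOX. A count of 0 at 9 sites allows a share of up to 33.3%, which is above the 13.9%. No direction is drawn from counts this small. Peaks of the 21 sites in 1 list had a -log10 q (the negative logarithm of the false discovery rate that MACS2 gives a peak) from 2.98 to 13.9 with a median of 5.69, and 1 of the 21 peaks overlapped a peak of the other list with its summit elsewhere. When the stronger peak was required to have a -log10 q of at least 10, 19 sites were left, 15 in both lists (78.9%), 2 only in +DOX and 2 only in -DOX. Of all sites, 10764 were left at that strength, 9523 in both lists (88.5%), 940 only in +DOX and 301 only in -DOX. Of the 13 receptor sites, 7 were left, 6 of them in both lists.

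**Figure D2:**
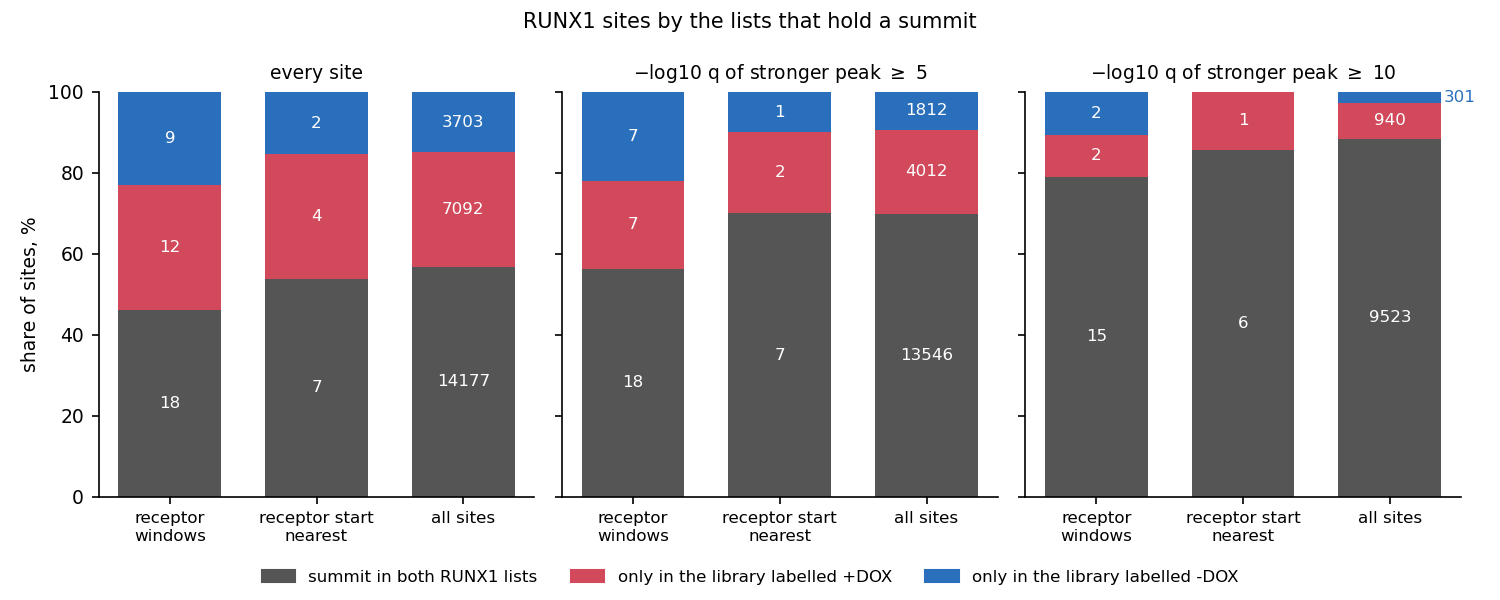
Stacked bars give the share of RUNX1 sites (y axis, percent; numbers of sites inside or beside the bars) in both lists, only in +DOX and only in -DOX, for the receptor windows, the sites with a receptor start as the nearest and all sites, at 3 strengths of the stronger peak. The share in both lists rises with strength in all 3 groups, from 18 of 39 to 15 of 19 in the receptor windows.

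The receptor tyrosine kinase genes differed from each other. *Kit* (chromosome 5, 75574916 to 75656722, plus strand), the receptor that marks blood stem and progenitor cells, had no RUNX1 summit in its 81807 bp or within 50 kb, and no H3K27me3 peak. Counted from its start in the direction of transcription, the closest summits lay at 155918 bp in the +DOX list (-log10 q 19.9) and at -141798 bp in the -DOX list (8.74). Protein-coding genes with no site in the window made up 22.0% of all, and 84.8% of those at least as long as *Flt3* had one or more.

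*Flt3* (chromosome 5, 147330741 to 147400489, minus strand), expressed in early lymphoid and myeloid progenitors, had 7 sites in its window, 3 in both lists, 3 only in +DOX and 1 only in -DOX. The one at the gene itself was at 147400324, in the 5′ untranslated region 165 bp inside the gene, and was only in the +DOX list. Its peak was weak, with a -log10 q of 5.69 at percentile 29.5 of its list and a fold enrichment of 4.60 over the local background. It lay under peaks of both H3K27me3 libraries, with summits at 147400347 (titled untreated, -log10 q 8.58) and 147400328 (titled DOX, 9.99), so that the RUNX1 summit and the 2 H3K27me3 summits fell within 23 bp. A site within 1500 bp of a start together with a peak of both H3K27me3 lists there was found at 4.28% of protein-coding genes, and among the 9 receptors at *Flt3* and *Csf2ra*. At *Csf2ra* the H3K27me3 summits lay in the 3′ untranslated region, 1049 and 1051 bp from an annotated start, with no RUNX1 site on them. The other 6 sites of the *Flt3* window had other genes as the nearest. The highest by percentile was 968 bp from a start of *Urad*, a gene of urate breakdown, with a -log10 q of 10.7 in +DOX (percentile 60.1) and 20.4 in -DOX (83.0). Close to it in rank was the site 34 bp from a start of *Pan3*, with 20.4 in +DOX (82.6) and 11.0 in -DOX (62.7), and others lay by the homeobox gene *Cdx2*.

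*Csf1r* (chromosome 18, 61100598 to 61132149, plus strand), the receptor of monocytes and macrophages, had 4 sites in its window, all in both lists, and its start was the nearest to none of them. No summit of either list fell in an intron of *Csf1r*, the second intron with its known enhancer included, and none within 1500 bp of its start. The only site in the gene was at 61131484, 30886 bp from the start, where the 3′ untranslated regions of *Csf1r* and of *Hmgxb3*, which is transcribed towards it, overlap. That site was strong in both lists, with a -log10 q of 29.3 (fold enrichment 9.14, percentile 90.0) in +DOX and of 19.3 (7.81, percentile 81.5) in -DOX, and the 2 summits were 1 bp apart. It held a STAT match and the shorter RUNX match TGTGGT. The strongest site of the window was at 61177130, 80 bp from a start of *Hmgxb3*, with a -log10 q of 42.5 in +DOX and 43.5 in -DOX. Upstream, an intron of *Pdgfrb*, the receptor of platelet-derived growth factor, had a site at -39939 bp from the *Csf1r* start with a -log10 q of 11.1 in +DOX and 22.2 in -DOX. The nearest summit that missed the 50 kb limit of any locus was also on this side of *Csf1r*, 52741 bp from the gene, in the -DOX list (-log10 q 26.99, percentile 88.7). By distance to a single gene, the summit farthest out but within the limit was 46931 bp from *Csf2rb2*, in the +DOX list, with a -log10 q of 5.35. That summit lay in an intron of the neighbouring receptor gene *Csf2rb*, so it is not at the edge of that gene's locus.

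*Csf3r* (chromosome 4, 126024550 to 126044440, plus strand), the receptor that drives neutrophil production, had 3 sites, none of them in both lists. The site of the gene itself was at 126028222, in an intron 930 bp from the closest start, and was only in the +DOX list. With a -log10 q of 3.45 and a fold enrichment of 3.90 it stood at percentile 7.23, the weakest of the 12 sites only in +DOX. It held the PU.1 match 51 bp before and the GATA match 12 bp after its summit that are printed above. The other 2 sites were only in -DOX, at 126047172 in a coding exon of *Mrps15* (-log10 q 5.02) and at 126058387, 178 bp from a start of *Oscp1* (13.3, percentile 70.4). With the libraries exchanged, the *Csf3r* site would be the one found in untreated cells alone.

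*Csf2ra* (chromosome 19, 61223957 to 61228429, minus strand) is short, and 3 of the 6 sites of its window had its start as the nearest. Of these, 2 lay in its introns, in both lists. At 61226721 the -log10 q was 14.0 in +DOX (percentile 70.8) and 6.43 in -DOX (37.4), with the 2 strongest summits 347 bp apart. At 61227821 it was 11.8 (64.2) and 16.1 (76.6), so the order of the lists was turned around between these neighbouring sites. Both held an ETS match (CAGGAAA or CAGGAAG or CCGGAAA or CCGGAAG). The third, at 61207746, lay beyond the 3′ end, 17744 bp from its closest start, and was only in +DOX, with a -log10 q of 12.3 and a fold enrichment of 6.81 at percentile 65.7. It was the strongest of the sites found in 1 list for which a receptor start was the nearest. Of its words of 31 letters, 33.2% occur more than once in the reference, so that not every read there has a single place.

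The 2 strongest sites of all 39 were also in the *Csf2ra* window but far from the gene. At 61199761 the -log10 q was 183 in +DOX and 146 in -DOX (percentiles 99.8 and 99.7), and at 61267021 it was 75.7 and 64.5 (98.4 and 97.6). Both lay under peaks of both H3K27me3 libraries, which were high in their own lists too. At the first, the H3K27me3 summits were at 61199759 (titled untreated, -log10 q 70.5, percentile 98.0) and 61199760 (titled DOX, 104, percentile 99.0), within 2 bp of the RUNX1 summit. The first site had 23.0% repeated words of 31 letters and the second 1.08%, and neither held any of the motifs searched. Both are nearest to starts of other genes, the first to the predicted gene *Gm6020*. The last letters of the 200 bp at the first summit and the opening letters of the 200 bp at the second read nearly alike. A few letters differ between them, and a copy that differs within a word is not counted as a repeated word. The low share at the second site therefore does not make its sequence unique. What else these positions, high in 4 libraries raised against 2 different targets by the labels, have in common was not tested.

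*Csf2rb* (chromosome 15, 78325752 to 78353847, plus strand) and *Csf2rb2* (78282507 to 78305721, minus strand) lie head to head, and their bodies still share sequence: 21.4% of the words of 31 letters of *Csf2rb* also occur in *Csf2rb2*. The 5 sites that lie in both windows are all in such sequence, with 18.9% to 54.6% of their words present elsewhere, where 28 of the 39 sites had no repeated word. Reads from repeated words cannot be placed in one copy with certainty, and each value here carries that limit.

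The strongest of the 5, at 78312706, lay 6985 bp upstream of *Csf2rb2*, whose start was the nearest, and was in both lists. Its -log10 q was 11.3 in +DOX (fold enrichment 6.31, percentile 62.4) and 21.6 in -DOX (8.89, percentile 84.3), and it was the only site with *Csf2rb2* as the nearest start. Its inverted copy contains the site at 78319053, 6699 bp upstream of *Csf2rb*, which was only in the -DOX list (-log10 q 6.44, percentile 37.5). The 2 stretches were 96.8% identical over 342 bp. So the upstream regions of both genes carried a site in the -DOX list, and that of *Csf2rb2* alone carried one in the +DOX list. A second site on the *Csf2rb* side, at 78318412 and also only in -DOX, was at the weak end of its list (-log10 q 3.69, percentile 10.04).

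At the start of *Csf2rb* a site at 78325967, 23 bp from an annotated start, was only in +DOX, with a -log10 q of 4.08 and a fold enrichment of 3.99 at percentile 12.1. Its 200 bp held PU.1, C/EBP, GATA and STAT matches, the most kinds of motif at any of the 39 sites. The copy of this region at the start of *Csf2rb2* was 93.2% identical to it, kept the PU.1 and STAT matches and lacked the C/EBP and GATA matches, and neither list had a summit there. The last of the shared sites, at 78352652 near the 3′ end of *Csf2rb*, was again only in +DOX and weak (-log10 q 5.35). At a -log10 q of at least 5, 1 of the 3 sites of *Csf2rb* was left, and at 10 none, while that of *Csf2rb2* remained in both lists.

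**Figure D3:**
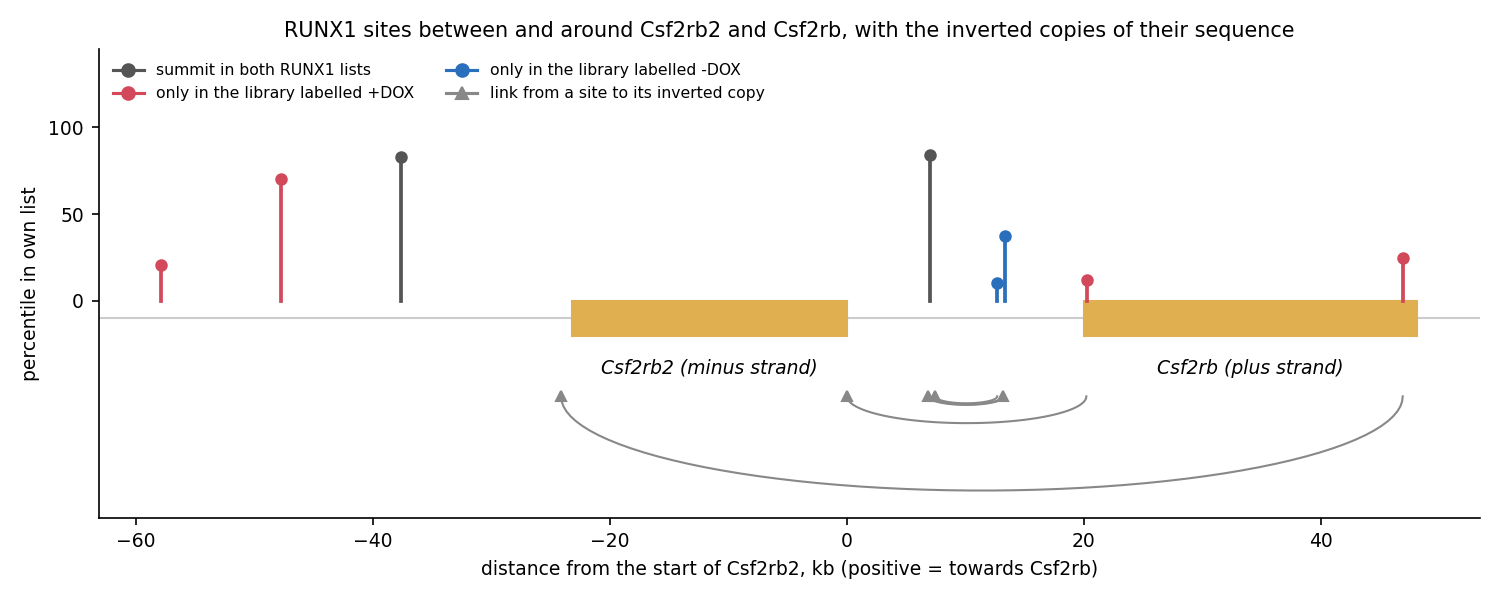
RUNX1 sites around *Csf2rb2* and *Csf2rb* by distance in kb from the start of *Csf2rb2* (stem height is the higher percentile within the own list, colour the lists with a summit), with arcs below from the shared part of each of the 5 sites to its inverted copy (triangle). The arcs centre between the genes, and the copy of the start of *Csf2rb*, at the start of *Csf2rb2*, has no stem.

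On the far side of *Csf2rb2*, 3 sites had *Ncf4*, a subunit of the phagocyte NADPH oxidase, as the nearest gene. One at 78268074 was in both lists (-log10 q 20.6 in +DOX, 8.53 in -DOX) and held an AP-1 match (TGACTCA) 36 bp before and a GATA match 16 bp after its summit. An intronic one at 78257966 was only in +DOX (-log10 q 13.9, percentile 70.4) with ETS and C/EBP matches, and had the highest -log10 q of all sites found in 1 list in the 9 windows. These 3 sites had no repeated words.

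*Il3ra* (chromosome 14, 14346275 to 14356011, plus strand) had 2 sites, and both were at its start and in both lists at nearly the same rank. At 14345647, 628 bp upstream, the -log10 q was 17.9 in +DOX (fold enrichment 6.62, percentile 79.0) and 19.0 in -DOX (6.58, percentile 81.2). At 14346288, 13 bp inside the gene, it was 19.5 (6.90, percentile 81.3) and 18.8 (6.50, percentile 80.8). Each held an ETS match. No other RUNX1 summit lay in the window. These 2 ranked above every other site within 1500 bp of a receptor start, and their ranks in the 2 lists lay closer together than those of any such site.

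*Epor* (chromosome 9, 21958897 to 21963506, minus strand), the receptor of red cell precursors, had the most sites in its window, 9, with 3 in both lists, 2 only in +DOX and 4 only in -DOX. The 2 with its start as the nearest were in both lists and ranked in opposite orders. The site 121 bp upstream of the start, at 21963627, had a -log10 q of 9.68 in +DOX (percentile 55.2) and 3.69 in -DOX (10.1). The one in the intron at 21962636 had 5.34 in +DOX (24.8) and 14.5 in -DOX (73.1). The upstream site, whose summit falls on a GATA match, stood higher in the +DOX list and the intronic one, without any match, in the -DOX list. Over all sites, 9.26% of those only in +DOX and 16.4% of those only in -DOX held a GATA match. No link of the match to a list is drawn from these sites. All 3 sites in both lists in the *Epor* window differed by at least 40 percentile points, where 8.44% of all sites in both lists did. The cut of 40 was not among the planned settings and lies below all 3 values, so this describes the 3 sites only. The third of them, at 21918280, was 88 bp from a start of *Rab3d*, at percentile 67.5 in +DOX and 14.1 in -DOX, and held no match. No other of the 18 sites in both lists in the receptor windows reached the cut. The differences of the 18 had a median size of 20.9 points, against 11.3 over all 14177. The strongest site in the window found in 1 list was at 21924271, in an intron of *Tmem205*, only in -DOX (-log10 q 13.4, percentile 70.6), with AP-1 and GATA matches.

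**Figure D4:**
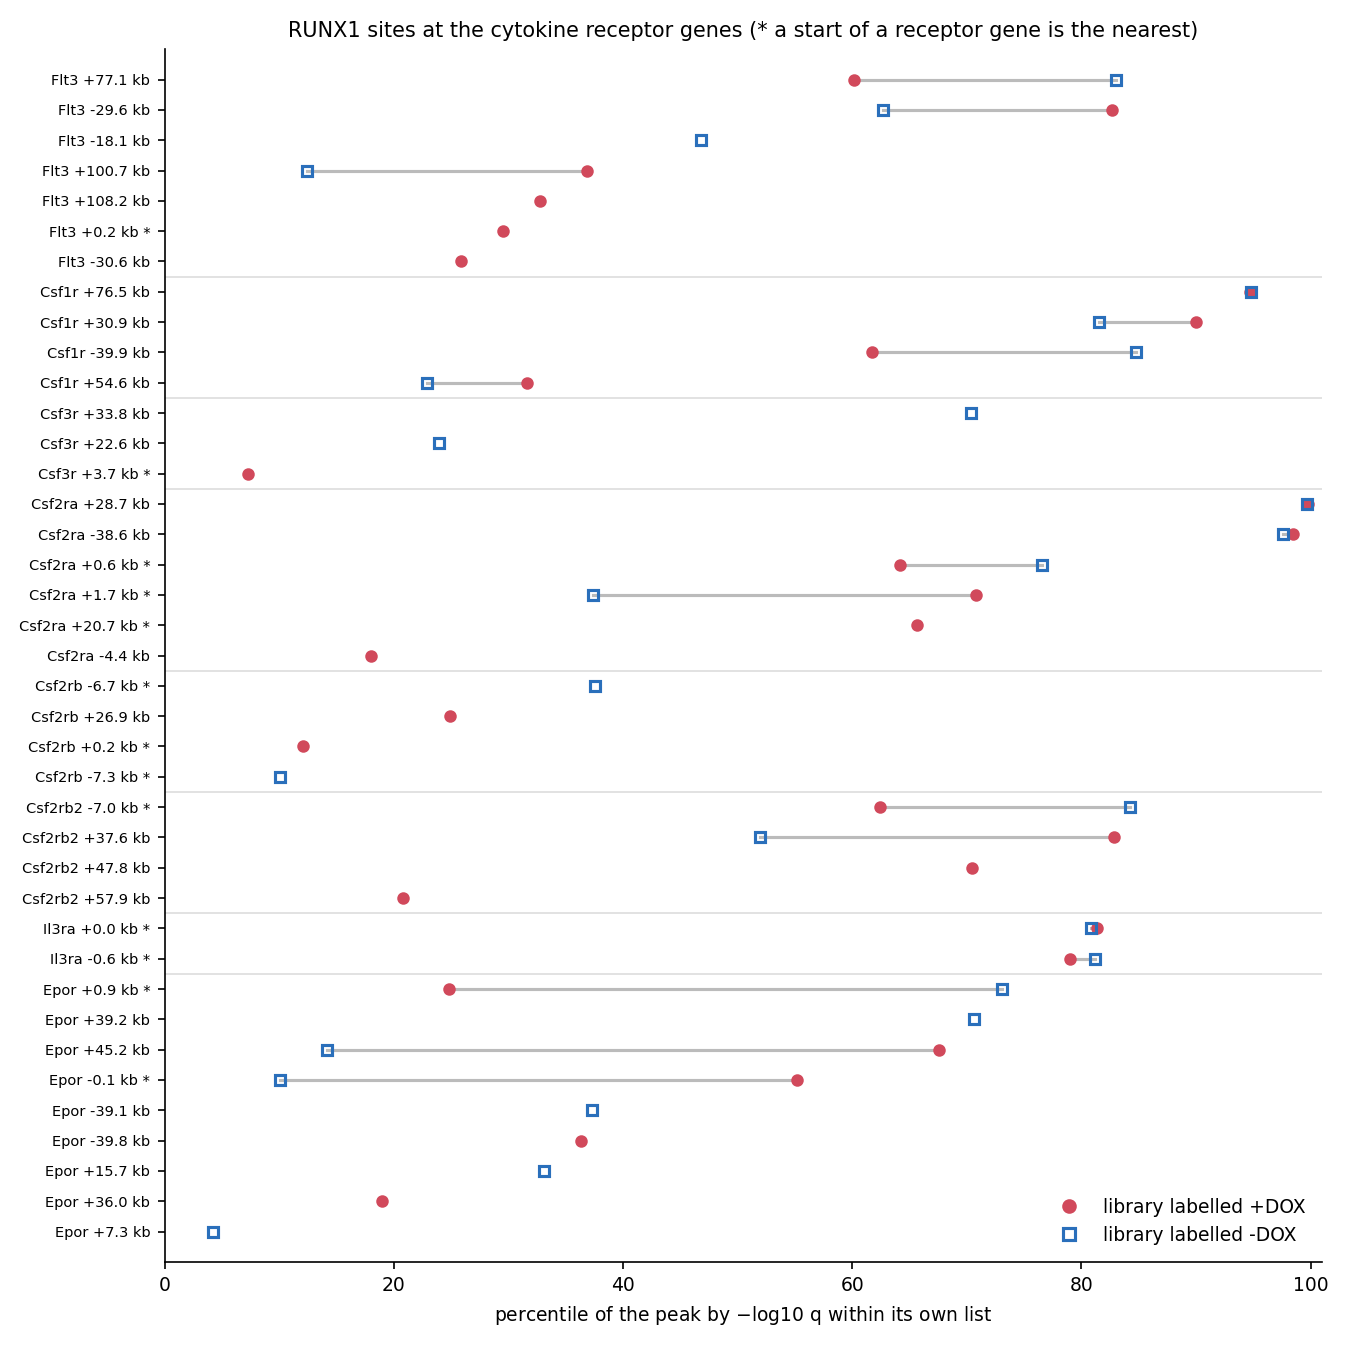
Each line is 1 of the 39 RUNX1 sites, named by the gene and the distance in kb from its start, with the percentile of its peak by -log10 q within the +DOX list (filled circle) and the -DOX list (open square), joined where both have one. The *Il3ra* and the outermost *Csf2ra* pairs nearly coincide, and the *Epor* pairs lie farthest apart.

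Motifs were counted in the 200 bp at each summit on both strands, beside the share of all 24972 sites with a match. The RUNX word TGTGGTT was at none of the 39 sites, while 14.2% of all sites had it. A count of 0 there allows a share of up to 7.69% by the rule of 3 counts, and 8.97% by the 95% Wilson interval. The word is less common near starts, at 6.01% of all sites within 1500 bp of one and at 23.8% of those beyond, and 22 and 17 of the 39 sites were of these kinds. Its shorter form TGTGGT was at 7 (17.9%), against 29.0%. For the longer word, the 95% Wilson interval reached 14.9% at the 22 sites near a start, above the 6.01% of all such sites. At the 17 sites beyond it reached 18.4%, below the 23.8%. In a window of 400 bp, 4 of the 39 sites had the longer word, with no share of all sites at that width to set beside it. GATA was at 8 sites (20.5%, 95% Wilson interval 10.8 to 35.5), against 11.7% of all. PU.1 was at 4 (10.3%, 4.06 to 23.6), against 4.66%, and these were in the *Csf3r*, *Csf2rb*, *Flt3* and *Epor* windows. None of the 4 was at one of the 18 sites in both lists, which by the rule of 3 counts allows a share of up to 16.7%, where 3.79% of all sites in both lists had the match. ETS was at 13 (33.3%, 20.6 to 49.0), against 29.9%, C/EBP at 4, against 6.46%, and STAT (TTCNNNGAA) at 3, against 4.04%. AP-1 was at 2 (5.13%, 1.42 to 16.9), against 4.97%, and TEAD (GGAATG) at 1, against 8.64%. The intervals cover counting error only, sites of one locus are not independent, and each of them except that of RUNX holds the share of all sites. The PU.1 word starts with G where the ETS words start with C, so the same GGAA core is never counted as both. The ETS count therefore leaves PU.1 matches out. The shorter RUNX word is part of the longer one. No match to any of these words, the shorter RUNX word included, was found at 11 of the 39 sites (28.2%), against 37.4% of all sites.

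**Figure D5:**
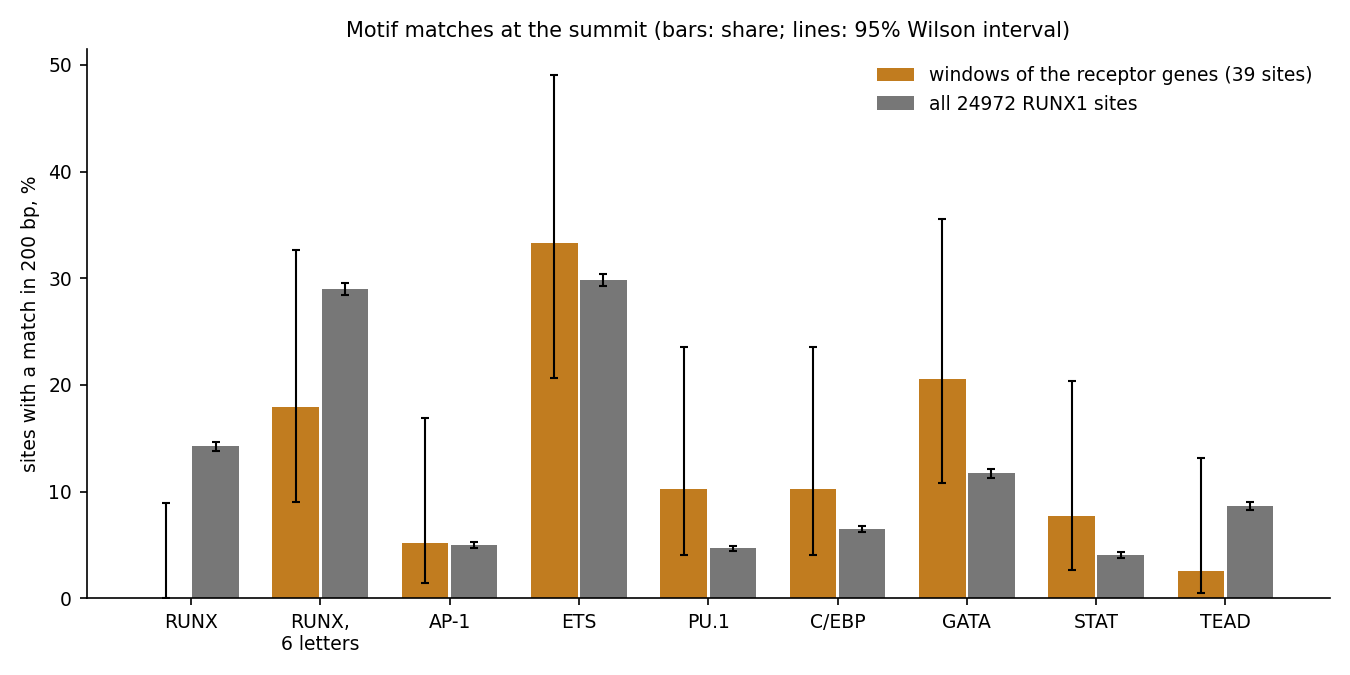
Bars give the share of sites (y axis, percent) with each motif within 200 bp for the 39 sites of the receptor windows and for all 24972 sites, with 95% Wilson intervals as lines. The RUNX bar of the receptor windows is at 0 with an interval up to 8.97%, below the 14.2% of all sites, and the other intervals of the receptor windows are wide.

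H3K27me3 peaks lay in the windows of 3 genes in the library titled untreated (12 peaks) and of 5 genes in the library titled DOX (16 peaks). Among all protein-coding genes, 33.2% and 35.3% had one or more. These peaks are narrow: the median width over the whole list was 180 bp (titled untreated) and 122 bp (titled DOX). The RUNX1 lists had 306 bp (+DOX) and 312 bp (-DOX). A peak is therefore not read here as a broad domain of the mark. *Csf2ra* had 5 and 7 of them, *Flt3* 3 and 6, and *Epor* 4 and 1, while *Il3ra* and *Csf2rb* had 0 and 1 each and *Kit*, *Csf1r*, *Csf3r* and *Csf2rb2* had none. Inside a receptor gene, peaks of both libraries lay at the start of *Flt3*, described above, and in the 3′ untranslated region of *Csf2ra*, with summits at 61224441 and 61224439. The *Csf2ra* peaks had a -log10 q of 31.8 (fold enrichment 15.2) in the library titled untreated and 54.2 (20.8) in the one titled DOX, and no RUNX1 site lay on them. The *Epor* peaks were at *Rgl3*, upstream of it, and those of *Flt3* away from its start were at *Cdx2* and *Urad*. A peak of at least 1 of the 2 lists covered 4 of the 39 RUNX1 sites (10.3%, against 7.76% of all sites), 1 in the *Flt3* window and 3 in that of *Csf2ra*. Without these 4 sites, 35 remained, 16 in both lists, 10 only in +DOX and 9 only in -DOX.

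To place the receptors in their pathway, sites with a gene's own start as the nearest were counted for 5 lists of genes, beside the 7 of 9 receptors and the 51.8% of all protein-coding genes. The class counts stand beside the shares of all sites: 56.8% in both lists, 28.4% only in +DOX and 14.8% only in -DOX. Of 10 ligands, 4 had such a site, namely *Csf1*, *Il34*, *Kitl* and *Flt3l*. *Il34*, a second ligand of the *Csf1r* product, had 3 sites only in +DOX and 1 only in -DOX, the strongest with a -log10 q of 3.82, and *Kitl*, the ligand of the *Kit* product, had 1, only in -DOX. Of 16 other cytokine receptors, 12 had a site, with 14 sites in both lists, 4 only in +DOX and 4 only in -DOX. The strongest in 1 list was in an intron of *Il4ra*, the alpha chain of the interleukin-4 receptor, only in +DOX (-log10 q 24.9, percentile 87.0), and above every site in 1 list in the 9 receptor windows.

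In the lists of genes further down the pathway nearly every gene had a site. These lists are short and were not compared with genes of like activity, so no trend along the pathway is drawn from them. All 9 kinases and STATs had one, with 11 sites in both lists, 5 only in +DOX and 0 only in -DOX. A count of 0 among 16 sites allows a share of up to 18.8%, and the share of all sites, 14.8%, is below that. *Stat3*, which acts below many of these receptors, had 5 sites, 3 of them only in +DOX. All 5 adaptors and RAS exchange factors had one, with 9, 4 and 1 sites, and the 1 only in -DOX was in an intron of *Sos1*, which loads RAS with GTP (-log10 q 10.01). Of 9 inhibitors 8 had one, with 15, 5 and 3 sites. *Inpp5d*, a lipid phosphatase of blood cells, had 6, and the strongest in 1 list was in an intron of *Sh2b3*, a brake on receptor signaling (only in +DOX, -log10 q 17.2). With the libraries exchanged, each count only in +DOX becomes one only in -DOX.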

How the data were processed

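RUNX1 and H3K27me3 ChIP-seq peak lists of dnFOS HP cells were used, 1 library each. For RUNX1, per the study's methods, the authors trimmed with Trimmomatic 0.39, used Bowtie2 for alignment to mm10 (2.3.5 in the methods, 2.2.9 in the submitters' processing notes), took out duplicates with Picard 2.20.2 and ran MACS2 (2.1.1 in the notes) on each library, keeping peaks at a q-value threshold of 0.05. The methods go on to remove peaks in blacklisted and repeat regions of mm10 and to filter by DNaseI data. Whether the lists used here had passed these filters was not checked, and none was applied here, so the sites need not be the study's own set. No input control is named, and further processing of the H3K27me3 libraries is not given in the sources used here. The deposited values are a ratio per peak (fold enrichment over local background) and its significance as -log10 p-value and -log10 q-value. No read counts were analysed, so depth is unknown, and values were compared as percentiles within a list.

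Summits on the autosomes, X and Y were extended by 200 bp, merged and classed by the lists holding a summit. The position of a site was the summit of its peak with the higher percentile. Genes, features and nearest starts came from GENCODE vM21, a site within 1500 bp of a start was called near, and motifs were counted as exact words. Repeated words were counted in the reference, and copies were aligned with Biopython 1.88, in Python 3.11.15 with numpy 2.4.6, scipy 1.17.1 and matplotlib 3.10.9. Merging, nearest starts and motif search were tested on simulated data.

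The 9 genes and the lists were chosen with earlier results of these data known. All 9 genes are named, with the gene nearest to the highest-ranking site of each window and, per pathway list, up to 4 genes with the strongest site in 1 list or the most sites. *Pdgfrb*, *Mrps15*, *Pan3*, *Cdx2*, *Ncf4*, *Tmem205*, *Rab3d*, *Rgl3* and *Tex33* were named after their values were seen. The alternatives changed the extension, overlap rule, strength, list length, window, starts, repeats, motif windows and library labels.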

Additional observations from a re-analysis of the deposited data

Results flagged for a closer look

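The H3K27me3 peaks in the receptor windows were singled out because the mark lies outside the RUNX1 comparison. There were 12 in the library titled untreated and 16 in the library titled DOX, and 5 and 7 of these were in the *Csf2ra* window. No control library was at hand, and because title and treatment contradict each other no condition can be given to either.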

How the results depend on the processing

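Of the 54 counts of sites and peaks recomputed under alternatives, 42 stayed within 1.5 times the reported value and 12 did not. Some of the 42 could not move. No site was over 50% soft-masked, so leaving such sites out kept all 39. The 13 sites with a receptor start as the nearest lay inside the windows already, so wider windows could add none. Exchanging the libraries turned 12 only in +DOX into 9, within 1.5 times, while the direction turned around. Keeping only peaks with a -log10 q of 10 or more, the 39 sites became 19, the 18 in both lists 11, the 12 only in +DOX 5, the 9 only in -DOX 3, the 13 with a receptor start as the nearest 7, and the H3K27me3 peaks 5 in each library. At a -log10 q of at least 5, the library titled DOX had 10 in place of 16. With windows of 25 kb, the sites only in +DOX became 7 and the H3K27me3 peaks 7 (titled untreated) and 9 (titled DOX). With the 15000 strongest peaks of each list, the sites only in +DOX became 7. These alternatives keep fewer peaks or less sequence by construction. Of 17 motif counts recomputed, 9 moved by more than that and 8 did not. In 100 bp, AP-1 went from 2 sites to 1, C/EBP from 4 to 2, ETS from 13 to 8, PU.1 from 4 to 2 and TEAD from 1 to 0, in 400 bp C/EBP went to 7, RUNX from 0 to 4 and TEAD to 5, and with 6 letters RUNX went to 7. The alternative without sites under H3K27me3 peaks was chosen after seeing the data. No paired analysis was possible because there was 1 library per condition, and no replicate could be left out. Unknown depth limits every site in 1 list.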
